A study of Mus musculus with 28 samples.

Results

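The epithelial-mesenchymal switch genes examined here are 10 genes, namely Cdh1, Epcam and Esrp1 of epithelial cells, Cdh2, Vim, Fn1 and Thbs1 of mesenchymal cells and their matrix, and the transcriptional repressors Snai1, Zeb1 and Zeb2. They were chosen by gene symbol from the platform annotation, each had 1 probe set, and all 10 were among the 13956 genes tested, of 19938 gene symbols on the array. The cells were mouse embryonic stem (ES) cells, and each of 28 Affymetrix Mouse Gene ST arrays read the RNA of 1 sample. The series profiled the mRNA of cells with hotspot mutations of DICER1, the ribonuclease that cuts mature microRNAs (miRNAs) from hairpin precursors. Growth was in ES cell medium and RNA was taken in log phase, per the labels.

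A Dicer wild-type line (n = 2 arrays) and a parental Dicer-null line (genotype Dicer-/-, n = 3) carried no transgene. All other groups were Dicer-/- cells with a lentiviral transgene. The vector pLD-puro-ENvA held eGFP (n = 3), wild-type DICER1 (n = 4) or the mutants D1709A (n = 4), E1705K (n = 3) and D1810Y (n = 3), where each name gives the residue exchanged. The vector pLD-puro-PGKnvA held wild-type DICER1 (n = 2), D1709N (n = 2) or E1813Q (n = 2). Wild-type DICER1 arrays of both vectors are described as 1 group of 6, and the 5 mutant groups held 14 arrays. The tests compare within a vector. Wild-type DICER1 therefore enters them with its 4 ENvA arrays, or with its 2 PGKnvA arrays against D1709N and E1813Q. With 1 line named for each parental genotype, other differences between those lines cannot be told apart from the loss of Dicer, and the labels do not say whether a transgene line was a clone or a pool.

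In an epithelial-mesenchymal transition, cells lose E-cadherin junctions and gain N-cadherin, vimentin and a fibronectin-rich matrix. Repressors of the Snail and Zeb families bind E-box sequences in epithelial promoters, and miRNAs of the miR-200 family in turn repress Zeb1 and Zeb2. ES cells are epithelial in form, held together by E-cadherin, and they need Dicer to make mature miRNAs of this family.

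The miR-200 family is shown because it is the textbook link between Dicer and the Zeb repressors. These are the mature 3′ strands from RefSeq (GRCm38.p6), 5′ to 3′, with the seed (bases 2 to 8) in capitals.
mmu-miR-200b-3p: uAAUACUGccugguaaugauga
mmu-miR-200c-3p: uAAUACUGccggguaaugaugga
mmu-miR-429-3p: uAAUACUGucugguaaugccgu
mmu-miR-200a-3p: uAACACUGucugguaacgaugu
mmu-miR-141-3p: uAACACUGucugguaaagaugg
miR-200b, miR-200c and miR-429 share the seed AAUACUG, and miR-200a and miR-141 share AACACUG. Levels of mature miRNAs are not reported here, since the sources used do not say whether the hairpin probe sets of the array read them.

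Promoters are shown for the members with a RefSeq window that holds an E-box. The motif searched was CACCTG and its reverse complement CAGGTG, on both strands, in the 250 bases before the gene start, and 17.2% of 32851 such windows in the table held at least 1. Of the 4 members with a window, Vim and Zeb2 had no match and Epcam and Snai1 had one or more, in capitals below, on the plus strand of GRCm38.p6.
Epcam, chr17:87635729-87635978: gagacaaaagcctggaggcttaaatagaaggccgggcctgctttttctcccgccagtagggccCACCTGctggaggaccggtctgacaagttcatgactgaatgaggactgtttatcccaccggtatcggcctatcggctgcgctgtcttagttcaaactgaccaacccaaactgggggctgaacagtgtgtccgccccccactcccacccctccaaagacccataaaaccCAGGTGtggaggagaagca
Snai1, chr2:167537945-167538194: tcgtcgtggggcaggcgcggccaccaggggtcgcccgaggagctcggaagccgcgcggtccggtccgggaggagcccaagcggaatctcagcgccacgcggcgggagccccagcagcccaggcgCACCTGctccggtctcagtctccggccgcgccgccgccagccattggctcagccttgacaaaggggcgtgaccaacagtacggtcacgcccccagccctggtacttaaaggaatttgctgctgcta
In Epcam the motifs began 187 and 19 bases before the gene start, and in Snai1 126 bases before it. These are letter matches only, and binding was not measured.

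Levels below are deposited log2 expression values, on which 1 unit is a doubling, and levels of different genes are not compared with each other. Differences between groups were tested with limma in 1 model of all arrays, and a gene was called at an adjusted p under 0.05. Array medians lay between 7.14 and 7.27. Dicer1 read 10.68 ± 0.05 (SD, n = 2) in Dicer wild-type cells, 9.27 ± 0.04 (n = 3) in Dicer-null cells and between 8.91 and 9.39 on average in the transgene groups. ES cell markers were high throughout, with means of 10 markers between 12.1 and 12.4 on every array. Single markers moved in both directions between groups. With the mutants against wild-type DICER1, 3 were higher and 6 lower (all tested genes, 32.3% and 27.7%), with Utf1 at 0.70 and Zfp42 at -0.33. In D1810Y alone 3 were higher and 7 lower, where 53.7% of all tested genes were called. With wild-type DICER1 against eGFP, 2 were higher and 4 lower (30.8% and 28.7%). The values obey exact linear relations across arrays, which define 4 sets of arrays. Set 1 holds the arrays numbered 1 of Dicer wild-type, Dicer-null, wild-type DICER1, D1709A and E1705K cells, and set 2 the arrays numbered 2 and 3 of those groups. Set 3 holds only array 4 of wild-type DICER1 and array 4 of D1709A, whose deviations from the other arrays of their group mirror each other. Set 4 holds the PGKnvA arrays, and the sets of the eGFP vector and D1810Y arrays could not be worked out. Where array sets entered a fit as a block, those 6 arrays were assumed to belong to set 2. The means of the 4 ENvA and the 2 PGKnvA arrays of wild-type DICER1 were equal within 7.5e-05 for every probe set, so with all arrays a vector term changes no estimate beyond that. When an array of that group is left out, these means differ. Estimates then rest on the remaining wild-type DICER1 arrays of the same vector. Single-mutant calls against wild-type DICER1 that change when set 3 is left out are given with both values.

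**Figure D1:**
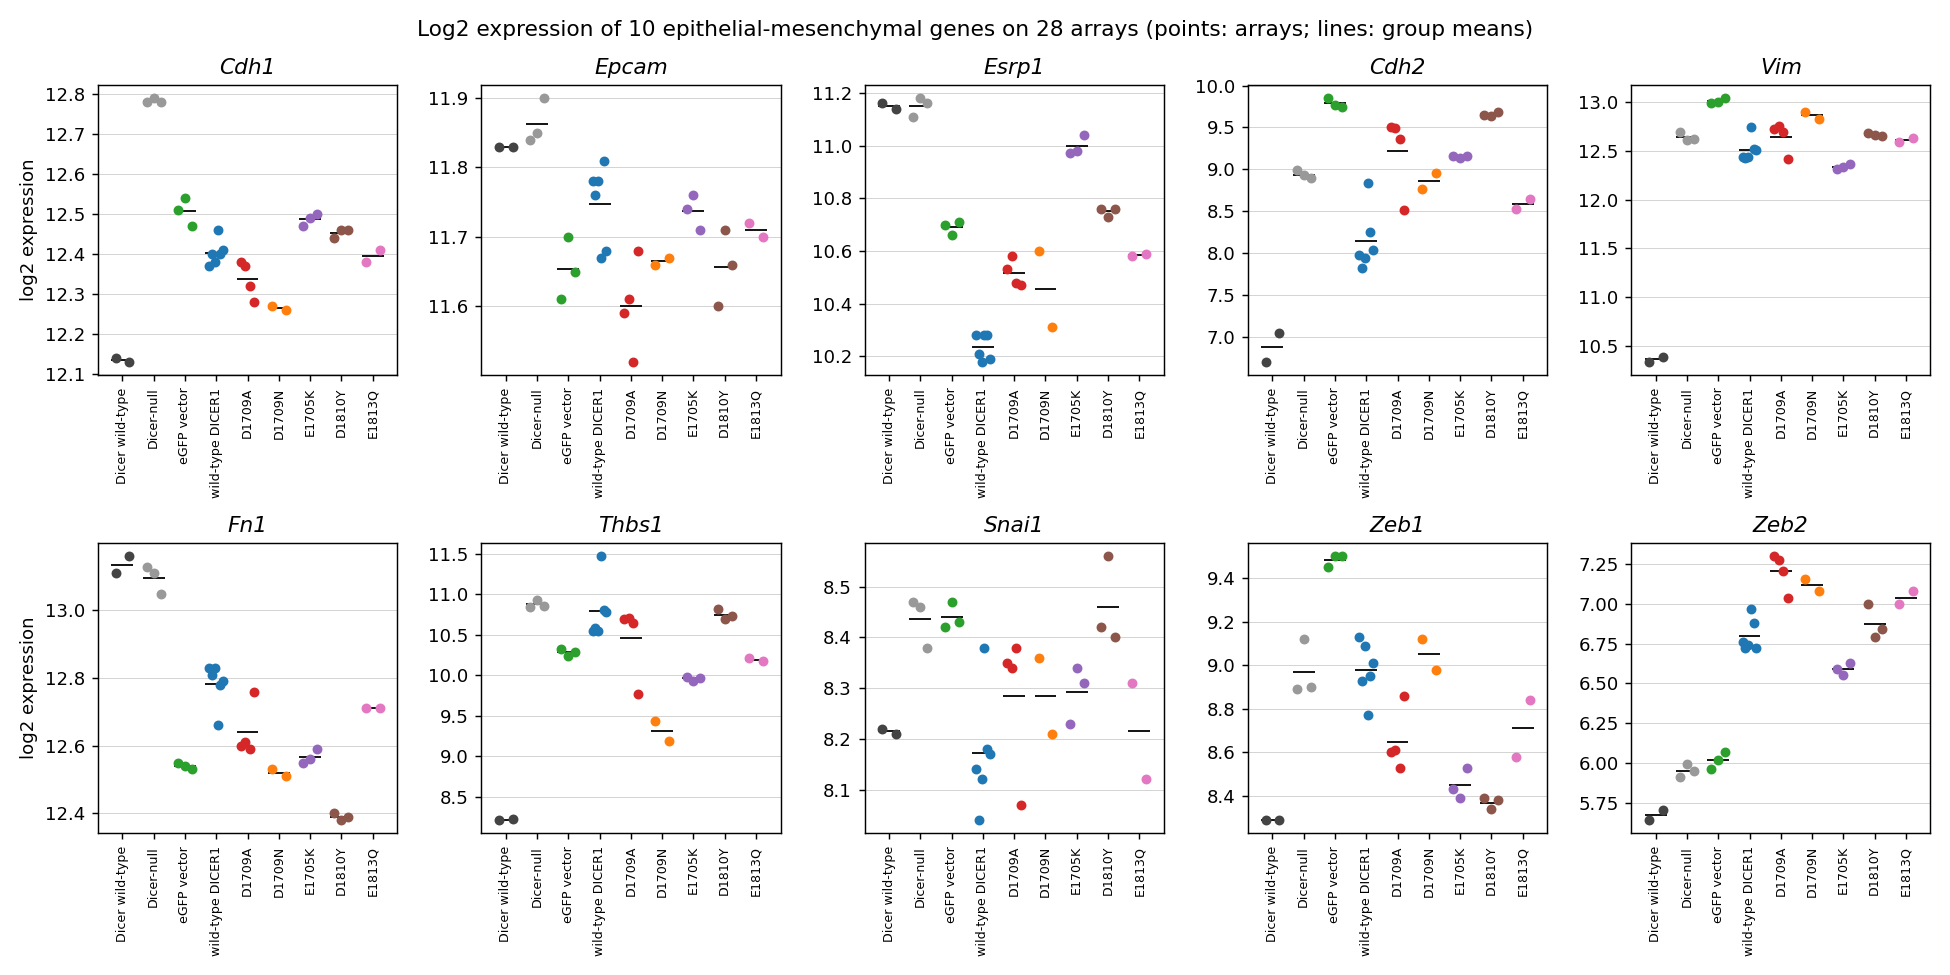
Log2 expression (vertical axis, on its own scale in each panel) of the 10 genes in the 9 groups; each point is 1 of 28 arrays and each line a group mean. Cdh2, Vim and Thbs1 are lowest in the Dicer wild-type group, at means of 6.88, 10.37 and 8.22, and Esrp1 is lowest with wild-type DICER1, at 10.24.

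The first comparison asked what differed between Dicer-null and Dicer wild-type cells. Dicer-null cells had higher Cdh1 together with higher Cdh2, Vim and Thbs1, so that an epithelial and several mesenchymal genes rose side by side. Zeb1, Zeb2 and Snai1 were also higher, while Epcam, Fn1 and Esrp1 were not called. In all, 7 of 10 genes were called, all higher, where 57.9% of tested genes were called, 30.7% higher and 27.2% lower. For 8 of the 10 the arrays of the groups did not overlap, as for 74.7% of tested genes. The median change of the 10 genes was 0.46 (log2), against 0.01 for all tested genes.

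Cdh1 (chr8:106603350-106670247, GRCm38.p6), which encodes E-cadherin of the adherens junction, read 12.14 and 12.13 on the Dicer wild-type arrays and 12.78, 12.79 and 12.78 on the Dicer-null arrays. The groups did not overlap, and the level rose by 0.65 (SE, 0.0315, adjusted p = 4.33e-15 in limma), or 1.57-fold. Cdh2 (chr18:16588877-16809246), which encodes N-cadherin, read 6.71 and 7.05 in Dicer wild-type and 8.99, 8.93 and 8.90 in Dicer-null cells. That was a rise of 2.06 (SE, 0.224, adjusted p = 1.65e-08), or 4.16-fold. Vim (chr2:13574311-13582826), the intermediate filament protein vimentin, read 10.34 and 10.39 against 12.69, 12.61 and 12.62. It rose by 2.28 (SE, 0.0757, adjusted p = 2.69e-18), or 4.84-fold.

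Thbs1 (chr2:118111876-118127133), the matrix glycoprotein thrombospondin 1, which can activate latent TGF-beta, had the largest change of the 10. It read 8.21 and 8.22 in Dicer wild-type and 10.85, 10.93 and 10.86 in Dicer-null cells, a 6.32-fold rise (log2 2.66, SE, 0.213, adjusted p = 6.31e-11). Fn1 (chr1:71585473-71653280), fibronectin, did not follow these genes. It read 13.11 and 13.16 in Dicer wild-type and 13.13, 13.11 and 13.05 in Dicer-null cells, which overlapped. Its difference had a 95% interval from -0.13 to 0.06 (adjusted p = 0.528).

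Zeb1 (chr18:5591327-5775468) read 8.29 on both Dicer wild-type arrays and 8.89, 9.12 and 8.90 on the Dicer-null arrays, a rise of 0.68 (SE, 0.0989, adjusted p = 1.59e-06 in limma). Zeb2 (chr2:44983512-45117442) read 5.64 and 5.70 against 5.91, 5.99 and 5.95, and rose by 0.28 (adjusted p = 0.00769). Both Zeb2 groups lay below 6.42, the level of the filter on low values, and no background level was measured. Snai1 (chr2:167538195-167542814) read 8.22 and 8.21 against 8.47, 8.46 and 8.38, a rise of 0.22 (adjusted p = 0.0383). The Snai1 call was lost without either Dicer wild-type array or without Dicer-null array 1 or 2 (adjusted p between 0.0832 and 0.133), and with array sets as a block (0.0549). The Zeb2 call was lost without Dicer wild-type array 1 (0.25, adjusted p = 0.0650).

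Epcam (chr17:87635979-87651127), an epithelial adhesion protein, read 11.83 on both Dicer wild-type arrays and 11.84, 11.85 and 11.90 on the Dicer-null arrays. Its change of 0.04 was not called (adjusted p = 0.540), and after median centring of the arrays it was 0.12 and called (0.0220). Esrp1 (chr4:11331933-11386783), a splicing regulator that maintains epithelial isoforms, had means of 11.15 in both groups, with a 95% interval of the difference from -0.12 to 0.12.

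**Figure D2:**
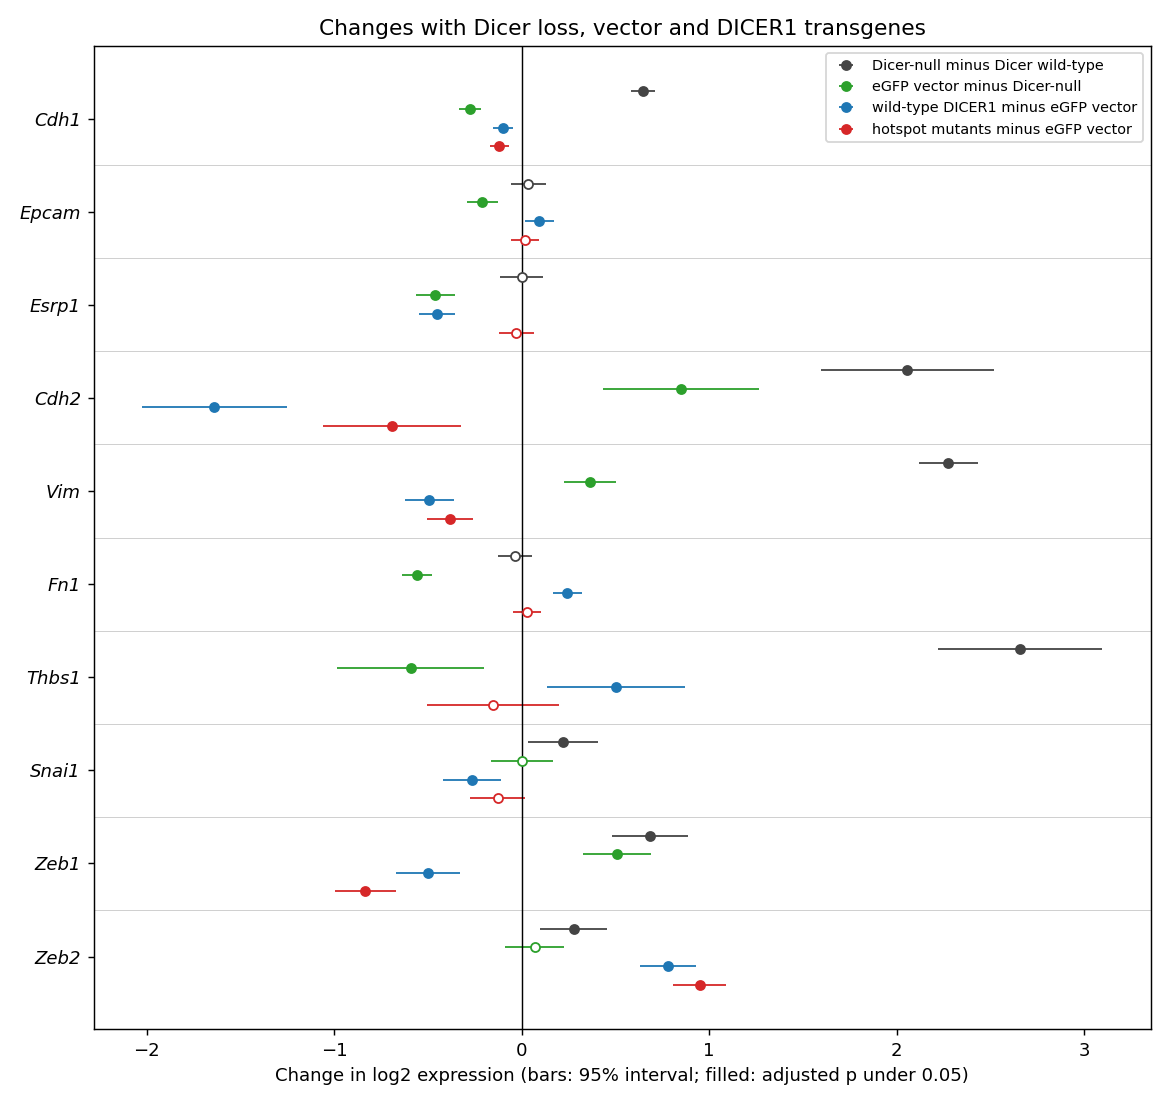
Change in log2 expression (horizontal axis) of the 10 genes in 4 comparisons, with 95% intervals from limma; filled points are called at an adjusted p under 0.05. Thbs1, Vim and Cdh2 have the largest rises in Dicer-null cells, at 2.66, 2.28 and 2.06, and Cdh2 the largest fall with wild-type DICER1, at -1.64.

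Dicer-null cells with the eGFP vector differed from the parental Dicer-null line in 8 of the 10 genes, 3 higher and 5 lower, where 47.6% of all tested genes were called, 20.2% higher and 27.4% lower. Cdh2 rose further by 0.85, Vim by 0.37 and Zeb1 by 0.51. Cdh1 fell by 0.28, Epcam fell by 0.21, Esrp1 fell by 0.46, Fn1 fell by 0.56 and Thbs1 fell by 0.59 (adjusted p between 1.77e-11 and 0.0121 for these 8 genes in limma). Snai1 and Zeb2 were not called. This step moved all 3 epithelial genes one way, but Fn1 and Thbs1 moved with them. The DICER1 transgenes below were compared with the eGFP vector, not with the parental line.

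Wild-type DICER1 was set against the eGFP vector, both in Dicer-/- cells. With wild-type DICER1, Cdh2, Vim, Zeb1 and Snai1 were lower, and so were the epithelial genes Esrp1 and Cdh1. Zeb2, Thbs1, Fn1 and Epcam were higher. All 10 genes were called, 4 higher and 6 lower, where 59.5% of all tested genes were called, 30.8% higher and 28.7% lower. In 9 of the 10, all but Epcam, the arrays of the groups did not overlap, as for 55.4% of tested genes.

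Cdh2 had the largest of these changes. It read 9.85, 9.77 and 9.74 with eGFP, and 7.83 to 8.84 with a median of 8.01 on the 6 wild-type DICER1 arrays, a 3.12-fold fall (log2 -1.64, SE, 0.188, adjusted p = 3.84e-08). Its mean of 8.15 ± 0.37 (SD, n = 6) lay above the Dicer wild-type level of 6.88 ± 0.24 (n = 2) by 1.27 (adjusted p = 1.73e-05). Vim read 12.99, 13.00 and 13.04 with eGFP and 12.43 to 12.74, median 12.48, with wild-type DICER1, and fell by 0.49 (SE, 0.0633, adjusted p = 2.46e-07). It stayed 2.15 above the Dicer wild-type line (adjusted p = 7.7e-18). In all, 8 of the 10 genes differed between wild-type DICER1 and Dicer wild-type cells, where 52.9% of all tested genes did.

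Thbs1 was higher with wild-type DICER1 than with eGFP. It read 10.33, 10.24 and 10.29 with eGFP and 10.55 to 11.47, median 10.68, with wild-type DICER1, a rise of 0.51 (SE, 0.178, adjusted p = 0.0170). Array 4 of wild-type DICER1 gave the 11.47. Without it the rise, on the other ENvA arrays of that group, was 0.28 and was not called (adjusted p = 0.0776). The call was also lost without eGFP array 2 (0.48, adjusted p = 0.0501). With both arrays of set 3 left out, the rise on those same ENvA arrays was 0.28 and called (adjusted p = 3.08e-06). Fn1 read 12.55, 12.54 and 12.53 with eGFP and 12.66 to 12.83, median 12.80, with wild-type DICER1, and rose by 0.24 (adjusted p = 3.24e-06).

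Esrp1 fell with wild-type DICER1, from 10.70, 10.66 and 10.71 to 10.18 to 10.28, median 10.24. The fall of 0.45 (SE, 0.0470, adjusted p = 7.64e-09 in limma) took it to the lowest group mean of the series, 0.91 below the Dicer wild-type line. Cdh1 fell by 0.10 (adjusted p = 0.00218), from 12.51, 12.54 and 12.47 to 12.37 to 12.46, median 12.40. Epcam rose by 0.10 (adjusted p = 0.0327), with overlap between groups. The Epcam call was lost without any 1 of eGFP arrays 1 and 3 and wild-type DICER1 arrays 1, 2 and 3 (change 0.08 to 0.09, adjusted p between 0.0672 and 0.146), with array sets as a block (0.0635, eGFP arrays assumed in set 2) and with median centring (0.152).

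The 2 Zeb genes went opposite ways. Zeb1 read 9.45, 9.50 and 9.50 with eGFP and 8.77 to 9.13, median 8.98, with wild-type DICER1, a fall of 0.50 (SE, 0.0828, adjusted p = 1.06e-05). Zeb2 read 5.96, 6.02 and 6.07 with eGFP and 6.72 to 6.97, median 6.75, with wild-type DICER1, a rise of 0.78 (SE, 0.0724, adjusted p = 1.05e-09). Zeb2 lay under 6.42 in the 3 groups without a DICER1 transgene and above it in all 6 groups with one, so it passed the filter through those 6 groups. Its tests against eGFP, and its place in those counts, therefore concern a gene kept for its level in the transgene groups. With no filter the rise was called as well (adjusted p = 1.33e-09). Snai1 fell by 0.27 (adjusted p = 0.00370), from 8.42, 8.47 and 8.43 to 8.04 to 8.38, median 8.15.

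Array probe sets for miR-200 hairpins were read as a description, with no test. The Mir200b probe set averaged 5.61 ± 0.06 (SD, n = 2) in Dicer wild-type, 5.85 ± 0.17 (n = 3) in Dicer-null, 7.06 ± 0.30 (n = 3) in eGFP vector and 5.94 ± 0.17 (n = 6) in wild-type DICER1 cells. In the mutant groups it averaged between 6.18 (D1810Y) and 6.64 (E1705K), so that the eGFP arrays, at 6.76 to 7.36, held the highest mean. Mir200a averaged between 6.88 in Dicer wild-type and 7.63 in eGFP vector cells. Mir200c and Mir141 lay under 6.42 on average in all groups. The sources used here do not say whether such a probe set reads primary transcript, precursor or mature miRNA.

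The hotspot mutants, as the mean of 5 groups with equal weight, were then set against the eGFP vector. Compared with eGFP, the mutants had lower Zeb1, Cdh2, Vim and Cdh1 and higher Zeb2. Thus 5 of 10 genes were called, 1 higher and 4 lower, where 53.1% of all tested genes were called, 29.3% higher and 23.8% lower. Zeb1 fell by 0.83 and Cdh2 fell by 0.69 (adjusted p = 2.07e-09 and 0.00200 in limma). Vim fell by 0.38 and Cdh1 fell by 0.12 (adjusted p = 7.3e-06 and 2.9e-04). Zeb2, which the filter kept for its level in the transgene groups, was higher by 0.95 (adjusted p = 1.76e-11, and 1.87e-11 with no filter). Cdh2, Vim, Zeb1 and Zeb2 did not overlap between the 14 mutant and 3 eGFP arrays, which held for 29.2% of tested genes. Esrp1, Epcam, Fn1, Thbs1 and Snai1 were not called, with changes between -0.15 and 0.03. Without set 3, Thbs1 (-0.20, adjusted p = 1.13e-04) and Snai1 (-0.14, adjusted p = 0.0213) were called lower as well.

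The comparison that the design centres on is mutant against wild-type DICER1 in the same Dicer-/- background. Mutant cells had higher Cdh2, Esrp1, Zeb2, Snai1 and Vim and lower Thbs1, Zeb1, Fn1 and Epcam. Of the 10 genes, 9 were called, 5 higher and 4 lower, where 60.1% of all tested genes were called, 32.3% higher and 27.7% lower. Cdh1 was not called, with a 95% interval from -0.05 to 0.02. The median size of the change over the 10 genes was 0.19 (log2), against 0.14 over all tested genes. Both comparisons with mutants share the mutant arrays, and the one with eGFP and the one with wild-type DICER1 each have their own control arrays.

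Esrp1 was higher on every mutant array than on any wild-type DICER1 array, the sole member without overlap, where 17.0% of tested genes did not overlap. The wild-type DICER1 arrays read 10.18 to 10.28, median 10.24. D1709A read 10.53, 10.58, 10.48 and 10.47, and D1709N read 10.60 and 10.31. E1705K read 10.97, 10.98 and 11.04, D1810Y read 10.76, 10.73 and 10.76, and E1813Q read 10.58 and 10.59. The mean rise was 0.42 (SE, 0.0306, adjusted p = 1.15e-11), or 1.34-fold, and all 5 mutants were called higher, from 0.22 in D1709N to 0.76 in E1705K. The D1709N call was lost without D1709N array 1 (0.07, adjusted p = 0.344) or without wild-type DICER1 array 6 (0.17, adjusted p = 0.0927). Without D1709N array 2 it was 0.36 and called.

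Cdh2 was higher with the mutants by 0.95 (SE, 0.122, adjusted p = 2.71e-07), or 1.93-fold. D1709A read 9.50, 9.49, 9.36 and 8.52, E1705K read 9.16, 9.14 and 9.16, and D1810Y read 9.65, 9.64 and 9.69. D1709N read 8.77 and 8.96, and E1813Q read 8.53 and 8.65. The overlap with wild-type DICER1 came from its array 4, at 8.84, since its other 5 arrays read 7.83 to 8.26. Within set 3, D1709A array 4 was below wild-type DICER1 array 4 by 0.32, while the mutants were above by 1.38 within sets 1 and 2 and by 0.58 within set 4.

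Thbs1 was lower with the mutants by 0.66 on average (SE, 0.116, adjusted p = 2.47e-05), with wide differences among them. D1709N read 9.44 and 9.19, the lowest of the transgene groups, against 10.81 and 10.78 on the wild-type DICER1 arrays of the same vector. E1705K read 9.98, 9.93 and 9.97, and E1813Q read 10.21 and 10.17. D1810Y, at 10.82, 10.69 and 10.73, lay inside the range of wild-type DICER1. D1709A read 10.70, 10.71 and 10.64 on arrays 1 to 3 and 9.77 on array 4.

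The D1709A value for Thbs1 turned on set 3. With all arrays it was -0.33 and not called (adjusted p = 0.102), and with set 3 left out it was 0.12 and called (adjusted p = 0.0247). The D1810Y value went from -0.04 (not called) to 0.18 (adjusted p = 7.54e-04) in the same way. Both values without set 3 are against the remaining ENvA arrays of wild-type DICER1, at 10.55, 10.59 and 10.55. Its PGKnvA arrays, at 10.81 and 10.78, do not enter them. Over all mutants the fall was 0.48 without set 3 (adjusted p = 6.34e-15).

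Vim was slightly higher with the mutants, by 0.11 (SE, 0.0412, adjusted p = 0.0229). The call was lost without any 1 of wild-type DICER1 arrays 1, 2, 3, 5 and 6 (change 0.09 to 0.11, adjusted p between 0.0545 and 0.0666) and with the replicate number as a block (0.0997), and without set 3 the change was 0.17 (adjusted p = 3.23e-10). The mutants went different ways. D1709N, at 12.90 and 12.83, was higher by 0.35 (adjusted p = 0.00150), while E1705K, at 12.31, 12.33 and 12.37, was lower by 0.18 (adjusted p = 0.0220). The E1705K call was lost without wild-type DICER1 array 4 (-0.10, adjusted p = 0.0959), E1705K array 1 (0.0729) or E1705K array 2 (0.0575), and without set 3 the difference was -0.10 and called (0.00148).

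Fn1 was lower with the mutants by 0.22 (SE, 0.0241, adjusted p = 2.57e-08). D1810Y had the lowest arrays, at 12.40, 12.38 and 12.39, all below the wild-type DICER1 range of 12.66 to 12.83. E1705K read 12.55, 12.56 and 12.59 and D1709N read 12.53 and 12.51, also below that range. E1813Q, at 12.71 on both arrays, lay inside it and was not called. D1709A read 12.60, 12.61 and 12.59 on arrays 1 to 3 and 12.76 on array 4.

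Among the repressors, Zeb1 fell by 0.33 (SE, 0.0538, adjusted p = 7.62e-06) and Zeb2 rose by 0.17 (SE, 0.0471, adjusted p = 0.00280). Zeb1 read 8.39, 8.34 and 8.38 in D1810Y and 8.43, 8.39 and 8.53 in E1705K, all below the wild-type DICER1 range of 8.77 to 9.13. D1709N, at 9.12 and 8.98, lay inside that range, and its change of 0.07 was not called (adjusted p = 0.632). Zeb2 was highest in D1709A, at 7.30, 7.28, 7.21 and 7.04, above the wild-type DICER1 range of 6.72 to 6.97. In E1705K, at 6.59, 6.55 and 6.63, every array lay below that range. This Zeb2 difference of -0.21 (adjusted p = 0.0202) was not called without wild-type DICER1 array 4 (-0.15, adjusted p = 0.0976), without E1705K array 2 (0.0757) or without set 3 (0.0855).

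Snai1 rose by 0.14 (SE, 0.0489, adjusted p = 0.0185), and its call was lost without wild-type DICER1 array 2 (0.11, adjusted p = 0.0638) or array 6 (0.0532) and with the replicate number as a block (0.0934). The only single mutant called for Snai1 was D1810Y, at 8.42, 8.56 and 8.40, higher by 0.29 (adjusted p = 0.00216). Epcam fell by 0.08 (SE, 0.0245, adjusted p = 0.00905), and by 0.05 without wild-type DICER1 array 5, where it was not called (adjusted p = 0.118). D1709A had the lowest Epcam mean, with arrays at 11.59, 11.61, 11.52 and 11.68, for a fall of 0.15 (adjusted p = 9.79e-04). These arrays overlapped with those of wild-type DICER1.

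**Figure D3:**
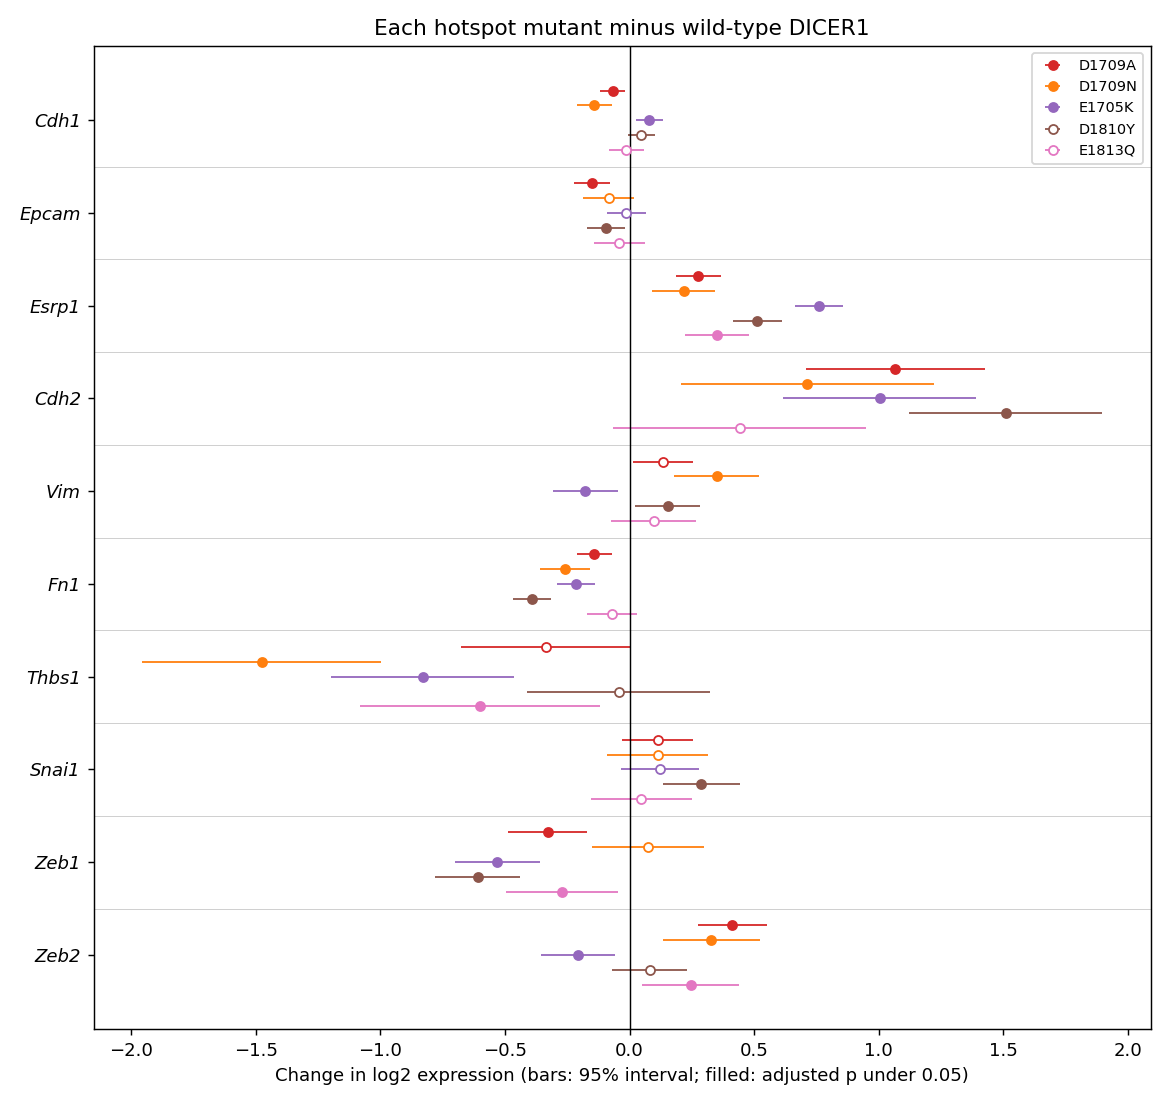
Change in log2 expression (horizontal axis) of the 10 genes in each of 5 mutants minus wild-type DICER1, with 95% intervals from limma; filled points are called at an adjusted p under 0.05. Esrp1 is filled and to the right of 0 for all 5 mutants, from 0.22 to 0.76, while Vim and Zeb2 lie to the left only in E1705K, at -0.18 and -0.21.

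By single mutant, 7 of 10 genes were called in D1709A (45.8% of all tested genes), 7 in D1709N (40.0%, or 4 genes without wild-type DICER1 array 6), 8 in E1705K (48.0%), 7 in D1810Y (53.7%) and 4 in E1813Q (40.6%). In D1810Y, the Vim call (0.15, adjusted p = 0.0446) was lost without any 1 D1810Y array or any 1 of wild-type DICER1 arrays 1, 2, 3, 5 and 6. The Epcam call there (-0.09, 0.0367) was lost without D1810Y array 1 or 3 or wild-type DICER1 array 1, 2 or 3. Both were lost with array sets as a block (0.0775 and 0.0711, D1810Y arrays assumed in set 2). Without set 3 the counts were 9 in D1709A, 7 in D1709N, 8 in E1705K, 9 in D1810Y and 7 in E1813Q. Calls over all tested genes rose in that fit as well, from 6391 to 7718 in D1709A and from 5576 to 6812 in D1709N. They rose from 6700 to 7771 in E1705K, from 7501 to 8386 in D1810Y and from 5661 to 6906 in E1813Q. In D1709A, leaving out set 3 ended the call of Cdh1 (from -0.07, adjusted p = 0.0245, to -0.03, 0.309). Vim (from 0.13, 0.0676, to 0.29, 1.41e-10), Thbs1 and Snai1 (from 0.11, 0.199, to 0.25, 4.80e-04) were then called. In E1705K, Snai1 was then called (from 0.12, 0.194, to 0.19, 0.00594) and Zeb2 was not. In D1810Y, Cdh1 (from 0.05, 0.138, to 0.07, 0.0142) and Thbs1 were called. In E1813Q, calls of Cdh2, Vim and Fn1 were added with no change in the estimates. Only the adjusted p fell, for Cdh2 (0.44) from 0.161 to 6.86e-05, for Vim (0.10) from 0.380 to 0.0140 and for Fn1 (-0.07) from 0.253 to 0.0290.

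With all arrays, the genes called in E1813Q were Esrp1 (0.35, adjusted p = 6.31e-05), Thbs1 (-0.60, 0.0423), Zeb1 (-0.27, 0.0481) and Zeb2 (0.24, 0.0417), all in limma. Thbs1, Zeb1 and Zeb2 were each lost with array sets as a block (adjusted p = 0.0557, 0.0658 and 0.0627), without wild-type DICER1 array 6 (0.119, 0.196 and 0.307) and without E1813Q array 1 (0.111, 0.438 and 0.0666). Without E1813Q array 2, Thbs1 (0.139) and Zeb2 (0.185) were lost, and without wild-type DICER1 array 5, Thbs1 (0.140) and Zeb1 (0.0960) were. Zeb1 was lost without wild-type DICER1 array 2 as well (0.0530), and without array 4 of that group Cdh2 was called (0.44, adjusted p = 0.0486).

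The mutants also differed from each other. A moderated F test over the 5 mutants called 9 of the 10 genes, all but Snai1, where 43.5% of all tested genes were called. It called all 10 genes without set 3. The shares of all tested genes called without set 3, by this test and in the pairs below, are not given here. Esrp1 was called in 6 of 10 pairs of mutants, with D1709N lower than E1705K by 0.54 (SE, 0.0775, adjusted p = 3.82e-05). Zeb2 and Cdh1 were called in 5 of 10 pairs each. D1709A was higher than E1705K in Zeb2 by 0.62 (adjusted p = 9.41e-07), and D1709N was lower than E1705K in Cdh1 by 0.22 (adjusted p = 0.00130). Without set 3, Cdh2 was called in 10 of 10 pairs, Vim and Thbs1 in 8, Esrp1, Cdh1, Fn1 and Zeb1 in 7, Zeb2 in 5, Snai1 in 3 and Epcam in 2, so the order of genes by number of pairs turned on that set. In that fit, pairs of mutants in different vectors also include the difference between the wild-type means of the vectors.

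D1709A and D1709N exchange the same aspartate for alanine and for asparagine, in different vectors. Of the 10 genes, only Thbs1 was called between them (5.06% of all tested genes were), higher in D1709A by 1.14 (SE, 0.286, adjusted p = 0.0217). Without set 3, with each mutant taken against wild-type DICER1 of its own vector, Thbs1 was higher in D1709A by 1.60 (9.41e-16). Cdh1 (0.11, 0.0197), Cdh2 (0.81, 1.30e-06) and Zeb1 (-0.54, 1.75e-04) were then called as well, and the share of all tested genes called in that fit is not given here. These values include the difference between the wild-type means of the vectors, which are no longer equal without set 3. Vector and substitution cannot be told apart in this pair. A test of whether the mutant effect differed between ENvA and PGKnvA called Zeb1 (-0.39, adjusted p = 0.0195) and Esrp1 (0.23, adjusted p = 0.0150), where 18.0% of all tested genes were called. Without set 3 these were -0.48 and 0.25, and Cdh1 (0.12, adjusted p = 0.00207), Cdh2 (0.92, 3.41e-09), Fn1 (-0.14, 3.76e-04) and Thbs1 (0.94, 5.06e-13) were called too. Different mutants stood in each vector, and with all arrays, where the wild-type means are equal, this test compares those mutant groups directly. Without set 3 its values also include the difference between the wild-type means of the vectors, and the share of all tested genes called is not given for that fit.

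**Figure D4:**
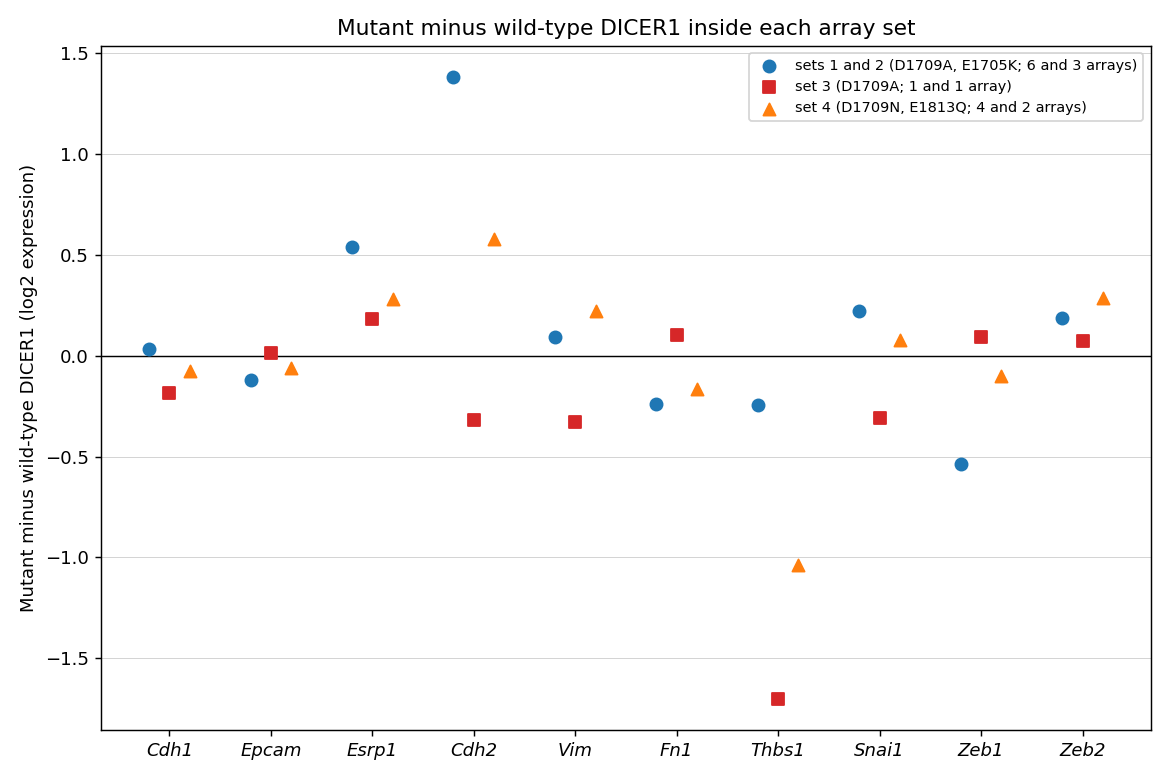
Mutant minus wild-type DICER1 (vertical axis, log2) for the 10 genes inside array sets 1 and 2 (6 mutant and 3 wild-type arrays), set 3 (1 and 1) and set 4 (4 and 2). Esrp1 lies above 0 in all of them (0.54, 0.18 and 0.28), while Cdh2 is at 1.38, -0.32 and 0.58.

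Inside array sets, without D1810Y, the mutant difference kept 1 sign for 3 of the 10 genes, where 45.8% of all tested genes kept 1 sign. These were Esrp1, at 0.54 in sets 1 and 2, 0.18 in set 3 and 0.28 in set 4, Zeb2, at 0.19, 0.07 and 0.29, and Thbs1, at -0.24, -1.70 and -1.04. The values for sets 1 and 2 are means of D1709A and E1705K, while set 3 holds D1709A only. For Thbs1, D1709A was at 0.12 within sets 1 and 2, so the sign there came from E1705K and D1709A itself did not keep 1 sign. For Cdh2, Vim, Snai1, Zeb1, Fn1 and Epcam, set 3 alone had the other sign. Cdh1 was at 0.03, -0.19 and -0.08. Set 3 holds 1 array of each kind, so its difference has no error of its own.

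An exchange of epithelial for mesenchymal genes would have the called epithelial genes Cdh1, Epcam and Esrp1 on one side and Cdh2, Vim, Fn1 and Thbs1 on the other. This was not seen in 10 of the 11 comparisons tested. In the E1813Q comparison, where 1 gene of each kind was called, Esrp1 was higher and Thbs1 lower, and that Thbs1 call was lost with array sets as a block (adjusted p = 0.0557) and without either E1813Q array. Without set 3, at unchanged estimates, Cdh2 and Vim were called higher in E1813Q beside Esrp1, so the exchange was not seen there either. Across the 9 group means, Cdh2 ran most closely with Vim (Pearson r = 0.86) and Epcam with Fn1 (r = 0.86), as a description over groups that share array sets. The Dicer wild-type mean lay 1.27 below the next group in Cdh2 and 1.97 below it in Vim. The r of these 2 genes leans on that group and was not worked out without it.

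The order of the groups differed between genes. For Cdh1 the order ran from Dicer wild-type through D1709N, D1709A, E1813Q, wild-type DICER1, D1810Y, E1705K and eGFP vector to Dicer-null, and the arrays of neighbours from D1709A to D1810Y, and of E1705K and eGFP vector, overlapped. For Vim it ran from Dicer wild-type through E1705K, wild-type DICER1, E1813Q, Dicer-null, D1709A, D1810Y and D1709N to eGFP vector, with overlap between all neighbours from wild-type DICER1 to D1810Y. For Esrp1 it ran from wild-type DICER1 through D1709N, D1709A, E1813Q, eGFP vector, D1810Y, E1705K and Dicer wild-type to Dicer-null, and the neighbours from D1709N to E1813Q, and Dicer wild-type and Dicer-null, overlapped. For Epcam it ran from D1709A through eGFP vector, D1810Y, D1709N, E1813Q, E1705K, wild-type DICER1 and Dicer wild-type to Dicer-null, with overlap between neighbours from D1709A to D1709N and from E1813Q to wild-type DICER1.

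Cdh2 ran from Dicer wild-type through wild-type DICER1, E1813Q, D1709N, Dicer-null, E1705K, D1709A and D1810Y to eGFP vector, and the overlapping neighbours were wild-type DICER1 and E1813Q, D1709N and Dicer-null, and E1705K and D1709A. Thbs1 ran from Dicer wild-type through D1709N, E1705K, E1813Q, eGFP vector, D1709A, D1810Y and wild-type DICER1 to Dicer-null, with overlap between neighbours from eGFP vector upward. Fn1 ran from D1810Y through D1709N, eGFP vector, E1705K, D1709A, E1813Q, wild-type DICER1 and Dicer-null to Dicer wild-type. Its neighbours from D1709N to wild-type DICER1 overlapped, as did Dicer-null and Dicer wild-type. These 3 mesenchymal genes thus did not share 1 order.

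Among the repressors, Zeb1 ran from Dicer wild-type through D1810Y, E1705K, D1709A, E1813Q, Dicer-null, wild-type DICER1 and D1709N to eGFP vector, with overlap between neighbours from D1810Y to E1813Q and from Dicer-null to D1709N. Zeb2 ran from Dicer wild-type through Dicer-null, eGFP vector, E1705K, wild-type DICER1, D1810Y, E1813Q and D1709N to D1709A. Its Dicer-null and eGFP arrays overlapped, as did the neighbours from wild-type DICER1 upward. Snai1 ran from wild-type DICER1 through Dicer wild-type, E1813Q, D1709A, D1709N, E1705K, Dicer-null and eGFP vector to D1810Y, and all neighbours overlapped except E1705K and Dicer-null. Of the genes whose group means spanned at least 1 log2 unit, those most like Cdh1 over the 9 means were Ube2j1 (r = 0.96), Ccdc120 (0.94) and Parp10 (0.94), and those most like Vim were Tmsb4x (0.99), Mrpl35 (0.98) and Immt (0.97). Vim in Dicer wild-type cells lay 1.97 below the next group, and likeness to Vim was not worked out without that group.

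Other epithelial genes were read from a list of 25, all tested. Between the parental lines, 20 were higher in Dicer-null cells and 4 lower, with a median change of 0.48 against 0.01 for all tested genes, of which 30.7% were higher and 27.2% lower. Krt19, a keratin, rose by 1.66, Dsp, a desmosomal protein, by 1.40 and Cldn3, a tight junction claudin, by 1.19. With wild-type DICER1 against eGFP, 5 were higher and 13 lower (median -0.20; all tested genes, 30.8% and 28.7%), with Grhl2, a transcription factor of epithelia, at -1.23, St14, a membrane serine protease, at -0.996 and Cldn3 at -0.99. With the mutants against eGFP, 5 were higher and 12 lower (median -0.15; all tested genes, 29.3% and 23.8%), among them Krt18 (1.14), St14 (-0.96) and Cldn3 (-0.89). With the mutants against wild-type DICER1, 12 were higher and 5 lower (median 0.10; all tested genes, 32.3% and 27.7%), and Grhl2 (0.82), Krt18 (0.47) and Krt8 (0.47) rose.

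Of 18 mesenchymal genes tested, 11 were higher and 2 lower in Dicer-null against Dicer wild-type cells (median 0.43), where 57.9% of all tested genes were called. Itgav, an integrin subunit, rose by 1.61, Sparc, a matrix glycoprotein, by 1.58 and Tagln, an actin-binding protein, by 1.39. With wild-type DICER1 against eGFP 7 were higher and 9 lower (median -0.06), where 59.5% of all tested genes were called, with the smooth muscle actin Acta2 at 2.75, the gelatinase Mmp2 at 1.27 and Tagln at 0.999. With the mutants against eGFP 7 were higher and 7 lower (median 0.00), where 53.1% of all tested genes were called, and the same 3 genes changed most, at 2.84, 1.40 and 1.16. Against wild-type DICER1 the mutants had 3 higher and 5 lower (median 0.03), a smaller share than the 60.1% of all tested genes called, with Mmp14, a membrane-bound metalloproteinase, at 0.50, Tgfbi, a TGF-beta-induced matrix protein, at -0.45 and Fstl1, a secreted glycoprotein, at 0.40.

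Of 16 genes tested from the TGF-beta, Nodal and activin input to this switch, 8 were higher and 3 lower in Dicer-null against Dicer wild-type cells, where 57.9% of all tested genes were called. The receptor Tgfbr2 rose by 1.87, the ligand Tgfb2 rose from a level under 6.42 and the ligand Tgfb1 fell by 0.68. With wild-type DICER1 against eGFP 8 were higher and 6 lower (59.5% of all tested genes called), with the inhibitory Smad7 at 0.90, Tgfb2 at 0.74 and Tgfbr2 at -0.64. With the mutants against eGFP 6 were higher and 4 lower (53.1% of all tested genes called), with the receptor Tgfbr1 at -0.59, Tgfb2 at 0.55 and Tgfb1 at 0.54. Against wild-type DICER1 the mutants had 3 higher and 5 lower (60.1% of all tested genes called), and Smad7 (-0.83) and the activin receptor Acvr2a (-0.47) fell while Smad3, a signal transducer, rose by 0.56.

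Markers of other cells moved in some of these comparisons. Of 9 fibroblast or feeder markers tested, 1 was lower and 0 were higher in the Dicer-null line than in the Dicer wild-type line (all tested genes, 27.2% lower and 30.7% higher). With wild-type DICER1 against eGFP 6 were higher and 0 lower (30.8% and 28.7% of all tested genes). With the mutants against eGFP 4 were higher and 0 lower (29.3% and 23.8%), and with the mutants against wild-type DICER1 0 and 3 (32.3% and 27.7%). The mean of all 15 markers per array ranged from 6.27 to 6.49 with eGFP, from 6.69 to 6.83 with wild-type DICER1 and from 6.44 to 6.73 with the mutants. Of the markers below the filter, which were not tested, Lum averaged between 3.95 and 4.14 and Fap between 4.20 and 4.53 in all groups. Postn averaged 4.81 with eGFP, 7.21 with wild-type DICER1 and between 5.00 and 6.35 with the mutants. For Dcn these means were 6.07, 5.88 and between 6.00 and 6.97. For Prrx1 they were 5.52, 5.90 and between 5.60 and 6.00, and for Col5a2 6.50, 6.48 and between 6.26 and 6.50. Of 9 extraembryonic endoderm markers tested, 6 were higher and 1 lower with wild-type DICER1 against eGFP, and 2 were higher and 5 lower with the mutants against wild-type DICER1, beside the same shares of all tested genes. The mean of all 10 endoderm markers ranged from 7.45 to 7.56 with eGFP, from 7.79 to 8.04 with wild-type DICER1 and from 7.54 to 7.83 with the mutants. The part of such cells in the changes of Thbs1, Fn1, Vim and Zeb2 was not tested, and in these bulk samples the number of cells of a kind and the RNA per cell cannot be told apart.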

How the data were processed

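RNA (Qiagen miRNeasy) was labelled with the Ambion WT expression kit, per the labels' protocols. The deposited values are log2 expression per probe set, made with RMA and Partek 6.6 per the submitters' processing notes, with settings not given in the sources used here. Of 35556 probe sets, those with 1 symbol were kept, 1 per symbol by highest mean, and genes under the 30th percentile of the mean (6.42) were left out. All 28 arrays entered 1 model in limma 3.58.1 (R 4.3.3; tables and figures with Python 3.11.15, pandas 2.3.3, numpy 2.4.6 and matplotlib 3.10.9), with 9 group coefficients, a PGKnvA term, a mean-variance trend, two-sided tests and Benjamini-Hochberg adjustment over 13956 genes. On simulated data of those genes, 99% of those changed by 1 log2 unit were called, and shares for smaller changes are not given here. The simulated noise was independent between arrays, without the exact relations of the real arrays. The simulation therefore cannot show how the model performs on these data. Precision is limited by the number of arrays (18 residual degrees of freedom). Exact relations (3 singular values at most 0.00233, the next 24.1) leave fewer free residuals than the model assumes, so p-values are approximate and may be too small. The labels do not say that replicates were separate cultures, so p-values measure only the spread between arrays, which may be technical. Alternatives were median centring, other filters, no vector term, no trend, blocks for replicate number and array set, left-out arrays and only the groups compared.

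The members and lists were chosen with earlier results of these data known. Named genes were the 10 members, up to 3 called genes of each list per main comparison by absolute change, and the 3 genes most like Cdh1 and Vim. Several list genes were below the filter and not tested. Promoter and miRNA sequences are from RefSeq tables.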

Additional observations from a re-analysis of the deposited data

Results flagged for a closer look

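The arrays numbered 4 of D1709A and of wild-type DICER1 stood apart from the other arrays of their group in 8 of 20 gene and group pairs tested with Dixon's test, where chance gives about 1 in 20. In D1709A, array 4 read 8.52 for Cdh2, 12.42 for Vim, 12.76 for Fn1, 9.77 for Thbs1 and 8.07 for Snai1. In wild-type DICER1, array 4 read 12.74 for Vim, 12.66 for Fn1 and 11.47 for Thbs1. The deviations of both arrays sum to 0 within 1.33e-04 over all probe sets, so the flags in one group are not independent of those in the other.

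Differences among the 5 mutants passed the test for 9 genes. The largest pair differences were -0.22 for Cdh1, 0.53 for Vim and -0.54 for Esrp1 (D1709N minus E1705K), 1.07 for Cdh2 and -0.32 for Fn1 (D1810Y minus E1813Q), -1.43 for Thbs1 and 0.68 for Zeb1 (D1709N minus D1810Y), and -0.14 for Epcam and 0.62 for Zeb2 (D1709A minus E1705K). The mutant effect differed between ENvA and PGKnvA by -0.39 for Zeb1 and by 0.23 for Esrp1.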

How the results depend on the processing

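Most results kept their direction and their side of the threshold. Outside left-out arrays, 1087 changes of single genes did so, 31 lost a call, 13 gained one and 8 turned, and with 1 array left out these were 1023, 60, 7 and none. Leaving out array set 3, an alternative chosen after seeing the data, turned Thbs1 in D1709A to 0.12 and in D1810Y to 0.18 (against the remaining ENvA arrays of wild-type DICER1). Within set 3 the mutant difference turned for Cdh2 (-0.32), Vim (-0.33), Epcam (0.012), Fn1 (0.10), Snai1 (-0.31) and Zeb1 (0.092). The number of the 10 genes called in E1813Q, 4 at first, was 2 with no filter or no trend, 1 with array sets as a block, 7 without set 3 and 1 to 5 with 1 array left out. For D1709N the count was 4 to 7 with 1 array left out. The cause was not tested.

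With the replicate number as a block, the lost calls were Snai1 in Dicer-null cells (0.23, adjusted p = 0.0657 in limma), Vim (0.11, 0.0997) and Snai1 (0.13, 0.0934) in the mutants, Vim in E1705K (-0.18, 0.0514) and D1810Y (0.15, 0.0870), Epcam in D1810Y (-0.09, 0.0518) and Zeb1 in E1813Q (-0.27, 0.0525). Of 88 pairs of arrays of the same number, 20 had deviations correlated over 0.1 (median -0.02), so pairing by number was not taken as shown. The exact relations within array sets constrain these correlations, and the numbers follow the sets in part, so the check cannot show that the numbers carry no batch.

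Median centring raised the share of higher calls from 53.0% to 64.4% in Dicer-null against Dicer wild-type cells and lowered it from 42.5% to 30.5% in eGFP vector against Dicer-null cells.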

Other observations

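The mesoderm or primitive streak markers, another fate of ES cells, had means of 9 markers between 7.04 and 7.29 on all arrays. Of 7 tested, 1 was higher and 2 lower in Dicer-null against Dicer wild-type cells, where 57.9% of all tested genes were called. The Mir205 probe set, for another miRNA that represses Zeb genes, averaged 5.63 ± 0.09 (SD, n = 2) in Dicer wild-type, 5.99 ± 0.15 (n = 3) in Dicer-null, 6.73 ± 0.02 (n = 3) in eGFP vector and 5.91 ± 0.16 (n = 6) in wild-type DICER1 cells. These are values with no test.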
